A study of Mus musculus with 7 samples.

Results

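CIRS-seq reads the structure of RNA from the places where reverse transcriptase (RT) halts in front of a chemically modified base. Dimethyl sulfate (DMS) modifies A and C, and the carbodiimide CMCT modifies U and G, in both cases at the face of the base that forms Watson-Crick pairs, so that bases held in helices are protected. The 102 positions described here were stopped after CMCT and almost never otherwise. They were selected on their measured counts, as positions with at least 50 RT stops in both CMCT libraries together and at most 1 stop, or none listed, in the untreated (NT) libraries together and in the DMS libraries together. Positions of the same gene symbol at the same transcript position were counted once. Of 444899 symbol and position pairs with at least 50 CMCT stops, 102 (0.0229%) met these limits, among 10188324 pairs with a stop in any of the 6 libraries. The values of CMCT, NT and DMS at these positions are therefore a description and were not tested.

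The CIRS-seq libraries were made from lysate of E14 mouse embryonic stem cells (ESCs), a single line of strain 129/Ola, whose RNA was freed of protein with Proteinase K before treatment, and ribosomal RNA was depleted. DMS RNA pooled treatments at 50, 100, 150 and 200 mM for 2 min, and CMCT RNA pooled treatments at 10, 20, 25 and 50 mM for 20 min, both at 30 °C. NT RNA pooled the 0 mM samples of both. Each group had 2 biological replicates, and 1 RNA-seq library of the line was also analysed. The CMCT libraries held 338201940 and 181944556 stop counts, a ratio of 1.86, and the NT and DMS libraries held between 205720379 and 245272270. In the RNA-seq library, 8 of 8 pluripotency markers lay between 238 and 7032 alignments per kb of exon, and 8 markers of other cells between 1.24 and 98.9.

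Because RT stops 1 base before the modified base, a read begins with the base that follows it, and the stopped base itself is not read. Sequences from 10 bases before to 15 bases after a position are given for the highest counts, down to Gm16200, for pairs that share the bases read, and for 3 short non-coding RNAs. The capital letter marks the stopped base.

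Cpa6, position 1041, chr1:10466252-10466277, minus strand: aagauccaguCuaaguggaucaagga
Cyb5r4, position 2283, chr9:86955391-86955416, plus strand: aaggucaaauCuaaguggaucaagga
Ssbp2, position 635, chr13:91797319-91797344, plus strand: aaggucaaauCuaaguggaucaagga
Cd59b, position 353, chr2:103930376-103930401, plus strand: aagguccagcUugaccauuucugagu
Gm14279, position 102, chr2:157347648-157347673, minus strand: aaggcguuuaUgcccgagaugaaacg
Gm16200, position 103, chr9:90116346-90116371, minus strand: aaggcguuuaUacccgagaugaaacg
Ddx5, position 1574, chr11:106643851-106643876, minus strand: auaaagcaagUgagcgaccuuaucuc
Gm12183, position 1358, chr11:48565844-48565869, minus strand: auaaagcaagCgagcgaccuuaucuc
Snord15a, position 76, chr7:106631352-106631377, minus strand: ugcugcguucUguggcacagcugaaa
U3, position 157, chr19:4078341-4078366, minus strand: cucuugccauUgaugaucguucuucu
mt-Ta, position 30, chrM:5042-5067, minus strand: agcaauugauUugcauucaauagaug

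Coordinates are of mm9, and positions count from 1 at the 5′ end of the transcript. Ddx5 and the transcribed processed pseudogene Gm12183 share the 25 bases after the stopped base, and both were listed with 48 and 44 CMCT stops in the 2 replicates. Cpa6, Cyb5r4 and Ssbp2 also share their next bases.

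The CMCT count of the 102 positions ran from 51 to 204 with a median of 63, and 76 lay under 70. Only 6 exceeded 100. Together they held 7074 stops, which was 0.00136% of all CMCT stops. NT was at 0 in 58 of them, DMS at 0 in 63, and both in 44. Nearest to the CMCT limit on its inner side, n-R5s85 at position 38 and Malat1, an abundant nuclear non-coding RNA, at position 1839 each had 51 CMCT stops and Rps3 at position 427 had 52. Just outside it, E130012A19Rik at position 2204, n-R5s217 at position 36 and n-R5s168 at position 34 each had 49 CMCT stops with the other limits met. With 2 NT stops and 0 DMS stops, mt-Ta at position 31 had 298. With 2 NT and 2 DMS stops, Gm14747 at position 920 had 163 and Gm12003 at position 1041 had 162.

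Uracil was the commonest base at these positions. The selection did not name a base, but its limit on DMS bears on A and C, the bases that DMS modifies. The base shares are therefore not independent of the selection. Of the 102, 67 were U (65.7%, 95% Wilson interval 56.1% to 74.2%), 16 were G, 15 were C and 4 were A. Among all positions with at least 50 CMCT stops, U made up 37.6%, C 30.9%, G 16.2% and A 15.2%. Either control limit alone raised the share of U among them, to 56.6% with at most 1 NT stop and to 58.7% with at most 1 DMS stop. C made up 17.3% and A 14.3% with the NT limit alone, and C 9.90% and A 7.45% with the DMS limit alone. G, the other base that CMCT modifies, made up 15.7% of the selected positions, against 16.2% of all with at least 50 CMCT stops. In 5S rRNA it was 13 of 41, and outside rRNA 3 of 61 (4.92%, interval 1.69% to 13.5%). The mirror selection, with at least 50 DMS stops and at most 1 in NT and in CMCT, gave 1627 positions, 95.2% of them A among the 1621 with a known base. Its limit on CMCT bears likewise on U and G. Counting each distinct sequence of the 25 bases after the position once, 45 of 64 were U (70.3%). Intervals cover counting error only, since copies of a sequence are not independent.

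**Figure D1:**
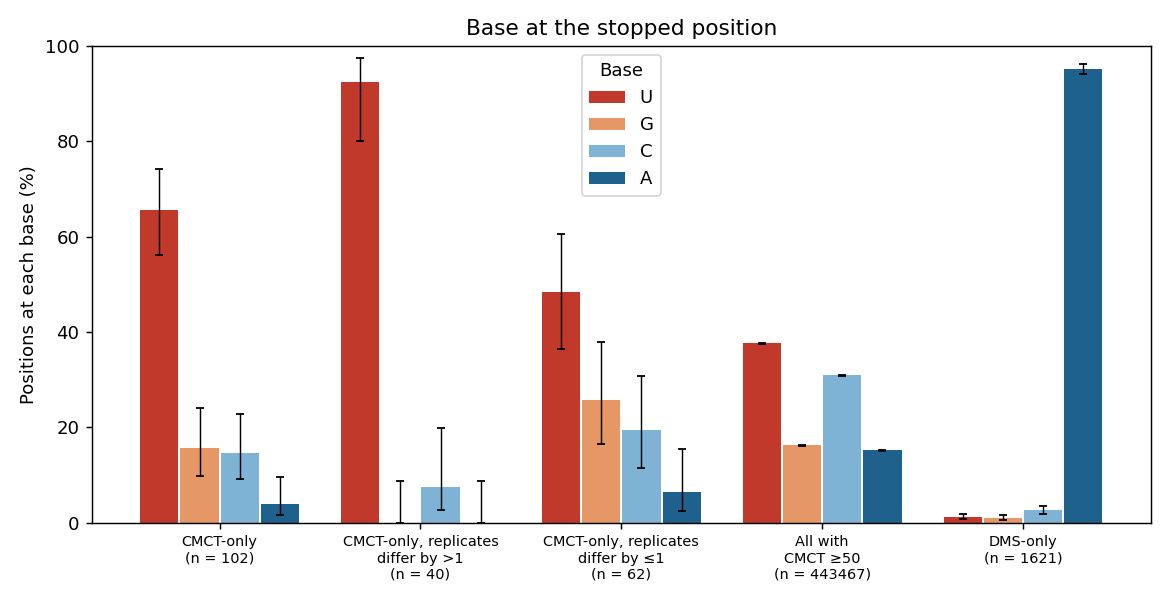
Share of positions (%) at U, G, C and A for the 102 CMCT-only positions, for those whose CMCT replicates differ by more than 1 stop (40) or by at most 1 (62), for all positions with at least 50 CMCT stops and for the DMS-only mirror set; bars are 95% Wilson intervals. U makes up 92.5% of the positions whose replicates differ by more than 1 and 48.4% of the others, and A makes up 95.2% of the DMS-only set.

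The neighbouring bases differed from the background as well. The base before the stop was A at 45 of 102 positions (44.1%, against 27.1% of the positions with at least 50 CMCT stops), and the base after it was G at 46 of 102 (45.1%, against 12.8%). A followed the position at 19.6%, against 43.6%. With each sequence of 25 following bases counted once, A preceded the stop at 28 of 64 and G followed it at 25 of 64. Of the 102 positions, 41 lay in 5S rRNA, with 30 distinct following sequences. In its commonest windows at positions 33 and 59, A precedes the stop, and at position 59 G follows it. These shares therefore do not separate 5S rRNA from the other RNAs, and the excess of A was not shown outside it.

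The 2 CMCT replicates gave nearly the same count at all the 5S rRNA positions and at a minority of the others. The counts differed by at most 1 stop at 62 of 102 positions (60.8%), against 19.6% of all positions with at least 50 CMCT stops, namely at 41 of 41 in rRNA and at 21 of 61 elsewhere (34.4%). After scaling to the library totals, 91 of 102 lay within 2-fold of each other (89.2%, against 83.1%) and 17.6% within 1.5-fold (against 38.2%), a limit that equal counts do not meet after this scaling. The median log2 ratio of replicate 1 to replicate 2 was 0.04 (pseudocount 0.5), against 0.56 over all such positions. Equal counts differ 1.86-fold once scaled to the totals. Replicate 1 exceeded replicate 2 by more than 2-fold after scaling at 9 of 102 positions (against 14.9% of all positions with at least 50 CMCT stops) and the reverse at 2 of 102 (against 1.98%).

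The base and the agreement of the replicates went together. Where the replicates differed by more than 1 stop, 37 of 40 positions were U (92.5%, interval 80.1% to 97.4%). The exceptions were C in Gm12183 and at 2 positions of Nolc1, which encodes a nucleolar phosphoprotein. The 2 positions of Nolc1 are 1 genome base on 2 isoforms. Gm12183 shares its counts and the bases read with the U of Ddx5, so the stops of these 2 cannot be told apart. Where they differed by at most 1, 30 of 62 were U (48.4%, interval 36.4% to 60.6%). Outside rRNA the same split gave 37 of 40 and 10 of 21. Counted once per genome position outside rRNA, U made up 21 of 23 and 9 of 17. Among all positions with at least 50 CMCT stops, U made up 37.5% of those whose replicates differed by more than 1 and 38.3% of the others. The split into these groups was made after the values were seen and was not tested.

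**Figure D2:**
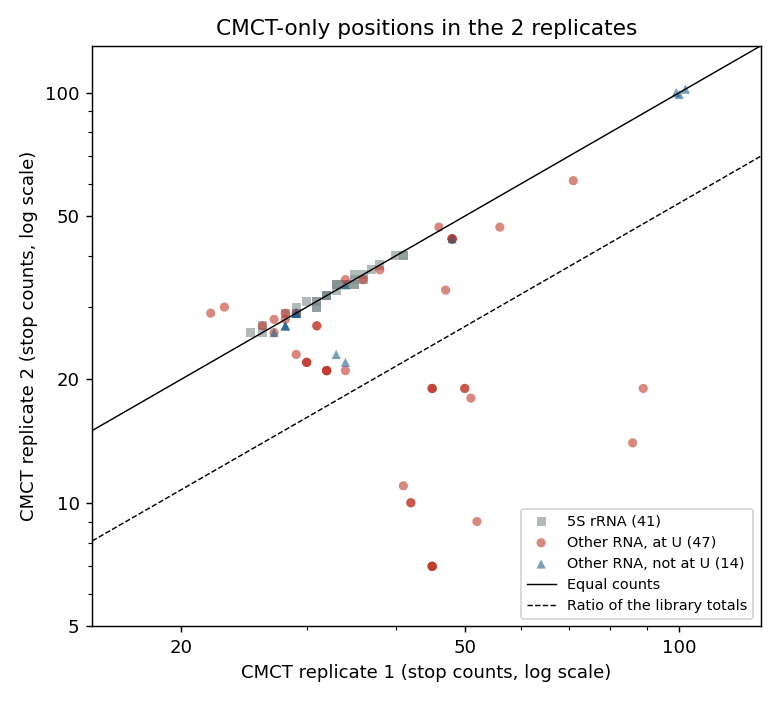
CMCT stop counts in replicate 1 (x axis) and replicate 2 (y axis), both on log scales, at the 102 CMCT-only positions, with symbols for 5S rRNA, other RNAs at U and other RNAs at another base; the solid line is equality and the dashed line the ratio of the library totals, 1.86. The 41 positions of 5S rRNA lie on the line of equality within 1 stop, and the positions below the dashed line are all at U.

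Each replicate was also read alone, and the positions so chosen were looked up in the libraries of the other. The CMCT replicates agree within 1 stop more often than elsewhere at the 102 positions, so whether the 2 sets of counts are fully independent was not tested, and this limits what the look-up shows. Positions that met the same limits in the libraries of replicate 1 alone numbered 72, and 11 of them were among the 102. In replicate 2, CMCT was higher than both NT and DMS at 68 of these 72 (94.4%, against 41.6% of the positions with at least 50 stops in CMCT replicate 1), with 3 to 149 CMCT stops and a median of 20. Both controls of replicate 2 were at 1 or less at 32 of them, and 16 met the full limits again. Leaving out the 16 of the 72 whose CMCT counts differed by at most 1, CMCT was highest at 52 of 56 (against 42.2%). Of the 72, 90.3% were U. Selection on replicate 2 alone gave 113 positions, 4 of them among the 102, and CMCT was highest in replicate 1 at 96 (85.0%, against 62.2%), and without the 30 that differed by at most 1 at 68 of 83 (against 69.7%). Both controls of replicate 1 were at 1 or less at only 16 of these 113, and 68.1% were U.

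The selected positions fell on 73 symbols, and on 80 genome positions. Of these genome positions, 12 were listed under 2 or more transcripts or symbols, which accounted for 34 of the 102, and within each of the 12 the CMCT count was the same. The 25 bases after the position occurred once in the genome for 51 of 102 and more than once for the other 51. For 31 of the 102, a listed place outside the selection had the same 25 bases. Among all positions with at least 50 CMCT stops, 17.1% had such a unique sequence. The largest class was 5S rRNA with 41 positions (40.2%), a class with 1.10% of all positions with at least 50 CMCT stops. This share fell to 10.6% without replicate 1 and to 9.72% without replicate 2 at the same minimum, to 3.35% with a CMCT minimum of 20 and to 8.81% with a control maximum of 5. Protein-coding transcripts held 28 (27.5%, against 57.2%), retained-intron isoforms 7 (6.86%, against 10.5%) and transcribed processed pseudogenes 6 (5.88%, against 13.2%). Small nucleolar RNAs (snoRNAs) held 5 (4.90%, against 0.245%) and isoforms subject to nonsense-mediated decay 4 (3.92%, against 1.93%).

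5S rRNA is the small RNA of the large ribosomal subunit, transcribed by RNA polymerase III from genes in tandem, and the mouse genome carries many diverged copies besides. The files listed 172 transcripts of the nuclear rRNA kind, 170 of them without those named for 5.8S rRNA, and 83 of 119 bases. Of the 41 positions, 12 lay at U of transcript position 33 and 11 at G of position 59, in 35 copies of 96 to 125 bases, 31 of them named n-R5s. The CMCT counts ran from 51 to 81, the replicates differed by 0 or 1 stop at 41 of 41, and 17 had next bases unique in the genome. Over all rRNA positions with at least 50 CMCT stops, 53.4% had replicates within 1 stop. Among the further copies of 119 bases with at least 50 CMCT stops, so did 59 of 60 at position 59 (98.3%) and 29 of 54 at position 33 (53.7%). Summed over the 83 copies, position 61 had 14321 and 14320 CMCT stops and 3644 and 3649 NT stops. Position 10 had 486660 and 227406 CMCT stops. Near-equal counts in 5S rRNA were thus not limited to the selected positions or to CMCT. Whether the replicate counts there are independent was not tested. The highest counts were 81 in AC134596.1 (41 and 40) and in n-R5s65 (41 and 40), and 80 in AL807771.1 (40 and 40). n-R5s176 held 3 positions, a U with 34 and 34 CMCT stops, a G with 31 and 31 and a C with 29 and 29, each with at most 1 NT and 1 DMS stop.

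No position lay in a copy with the commonest sequence. The commonest 119-base sequence was held by 32 copies, 32 of them on chromosome 8, and 0 of these had a CMCT-only position. These 32 had the same CMCT, DMS and NT stops per base as each other, so they are not 32 separate observations. Some less identical copies also shared their values, and the counts of copies below are a description only. The 35 copies with one were 71.4% to 97.5% identical to it, with a median of 86.6%. Of the copies with at least 95% identity but not the full sequence, 9 of 21 held one. Between 90% and 95% it was 8 of 15, between 80% and 90% it was 9 of 32, between 70% and 80% it was 9 of 44, with 15 of the 41 positions among them, and under 70% it was 0 of 26. CMCT stops per base had a median of 616 in the 32 identical copies, 88.9 in the 35 copies with a CMCT-only position and 10.5 in the 103 further copies. NT stops per base had medians of 1258, 20.5 and 2.73 in the same order.

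**Figure D3:**
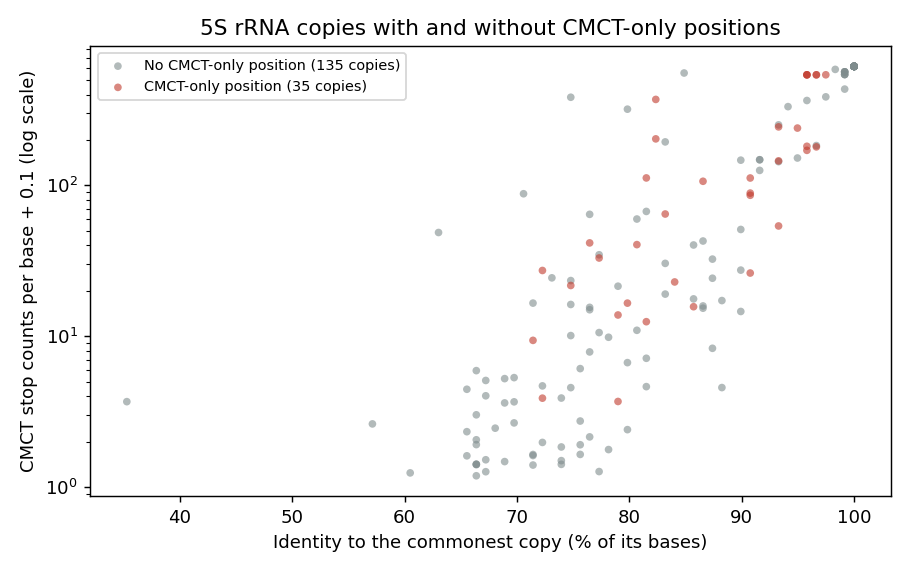
Each of the 170 copies of 5S rRNA by its identity to the commonest copy (x axis, % of the bases of that copy, missing bases included) and its CMCT stops per base plus 0.1 (y axis, log scale), red where it held a CMCT-only position. The red copies span 71.4% to 97.5% identity, and the copies at full identity, which all have the same 616 stops per base, are grey.

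The same base was stopped in the controls in other copies. Among 83 copies of 119 bases, U33 was CMCT-only in 9, with 66 to 72 CMCT stops, 0 or 1 NT stops and no DMS stop. In 54 further copies with at least 50 CMCT stops the same position had 95 to 167 CMCT stops, 2 to 51 NT stops and 0 to 126 DMS stops. These control stops came mostly from replicate 1. Summed over the 83 copies, position 33 had 2099 NT stops in replicate 1 and 106 in replicate 2, and 4712 and 709 DMS stops. At position 59 the NT stops were 2170 and 1989. Position 59 was CMCT-only in 10 copies, with 57 to 64 CMCT stops and no stop in NT or DMS, while 60 further copies had 71 to 425 CMCT stops, 6 to 90 NT stops and 0 to 15 DMS stops. At both positions the selected copies lay below these further copies in CMCT and in NT without overlap. The limit on NT fixes this for NT. The remaining copies were those under 50 CMCT stops, 20 at position 33 with 0 to 12 and 13 at position 59 with 0 to 7. The limit on CMCT therefore fixes that the selected copies lay above them. Many further copies shared 1 CMCT count, with a median equal to the maximum (167 and 425), so copies are not separate observations.

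The sequences around these 2 positions are shown for a selected and a further copy.

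n-R5s185, position 33, CMCT-only, chr4:53873546-53873571, plus strand: acacgcccgaUcuugucugaucucug
n-R5s122, position 33, the commonest sequence of the further copies, chr8:126100047-126100072, minus strand: acgcgcccgaUcucgucugaucucgg
n-R5s102, position 59, CMCT-only, chr8:126066123-126066148, minus strand: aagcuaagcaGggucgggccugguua

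At position 33 the 9 selected copies had 9 distinct sequences in this window. At position 59 the window of n-R5s102 was shared by 7 selected copies, each with 64 CMCT stops, and by 43 further copies with 89 to 425, so these bases did not separate the groups. n-R5s185 lies inside the 3′ untranslated region (UTR) of Tmem38b, which encodes a cation channel of intracellular membranes, and U1527 of that mRNA is the same genome base: it had 36 and 35 CMCT stops, 1 NT stop and 0 DMS stops, and n-R5s185 had 71 CMCT stops in all. These positions, and the RNAs named below with no entry among the highest counts, were chosen after their values were seen.

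**Figure D4:**
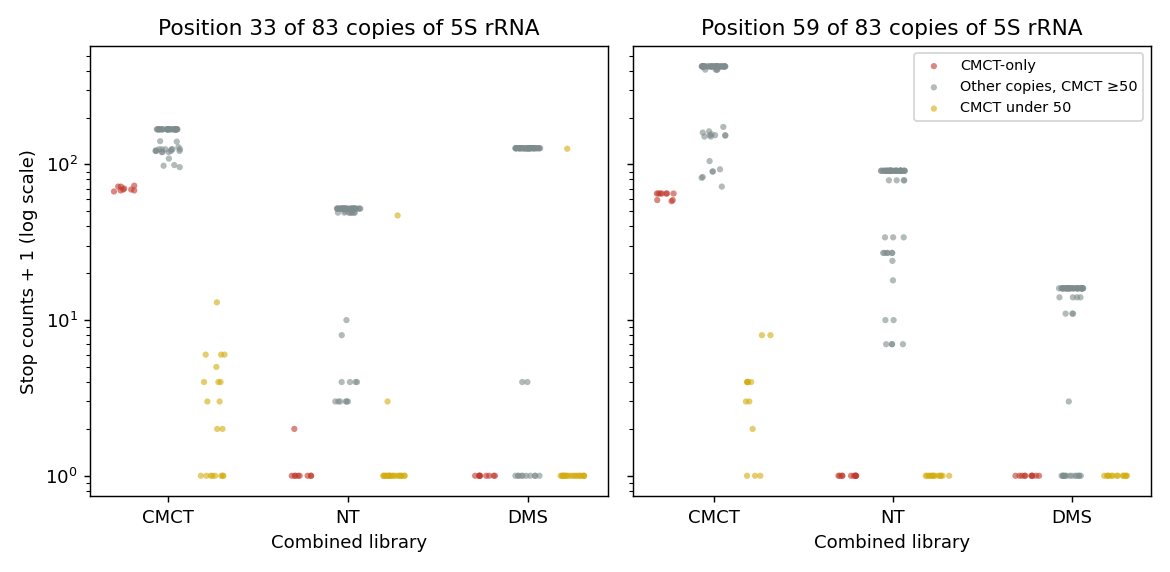
Stop counts plus 1 (y axis, log scale) in the combined CMCT, NT and DMS libraries at positions 33 (left) and 59 (right) of 83 copies of 5S rRNA, each point a copy, with small horizontal offsets. CMCT-only copies (red) lie at 66 to 72 and 57 to 64 CMCT stops, below the other copies with at least 50 (grey). That they lie above those under 50 (yellow) is fixed by the limit on CMCT.

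Of the 28 positions in protein-coding transcripts, 16 lay in the coding sequence (CDS), 12 in the 3′ UTR and none in the 5′ UTR. Over all mRNA positions with at least 50 CMCT stops, 45.2% lay in the CDS, 49.2% in the 3′ UTR and 5.60% in the 5′ UTR. The replicates differed by more than 1 stop at 16 of the 16 positions in the CDS and by at most 1 at 11 of the 12 in the 3′ UTR. Among all mRNA positions with at least 50 CMCT stops, they differed by at most 1 at 11.4% in the CDS and at 23.2% in the 3′ UTR. Counted once per genome base, this was 0 of 9 in the CDS and 7 of 8 in the 3′ UTR, and U made up 8 of 9 and 5 of 8. Several isoforms of a gene often held the same base. Ddx5, an RNA helicase of the DEAD-box family, held 5 positions that were 1 genome base (chromosome 11, 106643866), read through isoforms with and without a coding region, with 48 and 44 CMCT stops, 1 NT stop and 1 DMS stop each. Myh9, the heavy chain of a non-muscle myosin, held 4 such positions at 1 U with 32 and 21 stops. A further Myh9 isoform had 33 CMCT, 0 NT and 0 DMS stops at the same genome base. Zfp106, a zinc finger protein, held 4 at 1 U with 29 or 30 stops in replicate 1 and 22 or 23 in replicate 2. Ddah2 held 3 at a U with 45 and 19, and Ywhae, a 14-3-3 protein, held 3 at a U with 50 or 51 and 18 or 19. Ptges3, a co-chaperone of Hsp90, held 3 at an A in its 3′ UTR with 28 and 27. Replicate 1 had the higher count in Myh9, Zfp106, Ddah2 and Ywhae, and the replicates lay within 1 stop in Ptges3. After scaling to the library totals, replicate 1 stayed higher in Ddah2 (by 0.33 on the log2 scale) and Ywhae (by 0.48 to 0.58), and the log2 ratio turned to -0.30 in Myh9 and to between -0.57 and -0.46 in Zfp106.

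Further positions in 3′ UTRs had counts within 1 stop of each other in the replicates. Dkc1, the pseudouridine synthase of H/ACA particles, had 27 and 28 CMCT stops at a U, Wapal, which releases cohesin from chromatin, had 28 and 29 at a U, and Rnmt, the methyltransferase of the mRNA cap, had 26 or 27 in each replicate at a U. Ubb, a polyubiquitin gene, had 29 and 29 at a G on each of 2 isoforms, and Pigk had 27 and 26 at a C. In the CDS, Nolc1 had 33 or 34 and 22 or 23 at a C, and Fem1b, an adaptor of a ubiquitin ligase, had 34 and 21 at a U.

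The 5 highest counts lay on sequence that occurs more than once in the genome, and the next, in Snord15a (103) and Gm16200 (100), on sequence found once. The C in Cpa6 had 102 CMCT stops in each replicate, in Cyb5r4 99 and 100, and in Ssbp2 100 and 99, and each had 0 NT stops and 1 DMS stop. They lay on retained-intron isoforms of Cpa6, a carboxypeptidase, and of Cyb5r4, a cytochrome b5 reductase, and on a processed transcript of Ssbp2, a DNA-binding protein, and the 25 bases after them occurred 3745 times in the genome. The counts were thus nearly equal in 3 genes whose RNA-seq levels were 0.146, 75.2 and 1.61 alignments per kb. Cd59b, an inhibitor of complement, had 71 and 61 CMCT stops at a U in its CDS, with 1 NT and 0 DMS stops, and its next bases occurred 280 times. RP24-76I6.1, a processed pseudogene, had 46 and 47, with next bases found 4936 times and no RNA-seq alignment.

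Some positions had a far lower count in replicate 2. Gm14279 had 89 and 19 CMCT stops and Gm16200 had 86 and 14, both at U with 0 NT and 0 DMS stops. At 16 other listed places with the same next 25 bases as Gm14279 there were 103 to 111 CMCT, 0 NT and 2 DMS stops, outside the limit on DMS. Eef1a1, a translation elongation factor, had 45 and 7 on a pair of retained-intron isoforms, with 0 NT and 0 DMS stops. On 3 protein-coding isoforms of Eef1a1 the same genome base had 111 CMCT stops (74 and 37), 30 NT stops and 26 DMS stops, so the base was CMCT-only on some of the isoforms that carry it and not on others. Rps3, a protein of the small ribosomal subunit, had 41 and 11 on 1 isoform, with 0 NT stops and 1 DMS stop. The same genome base had 64 CMCT, 46 NT and 3 DMS stops on a pair of others, and 1 CMCT, 0 NT and 0 DMS stops on a further isoform. Nedd4, a ubiquitin ligase, had 52 and 9 at a U of its 3′ UTR, with 1 NT and 1 DMS stop.

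The short non-coding RNAs gave 5 positions in snoRNAs and 1 in a mitochondrial tRNA. Snord15a, of the box C/D family that guides methylation of rRNA, had 56 and 47 CMCT stops at a U with 0 NT and 0 DMS stops, and the position had the second count of its RNA by rank. U3, the snoRNA needed for the first cleavages of pre-rRNA, had 75 CMCT stops at U157 in each of 3 copies, with 0 NT and 0 DMS stops: 38 and 37 in the replicates for 2 of them, and 37 and 38 for the other. In 4 further copies of U3 the same position had 550 CMCT stops (288 and 262), 76 NT stops and 265 DMS stops. U157 is the first base of UGAUGA, the letters at the core of box C, which occurred in 10 of 44 listed U3 transcripts and in 35.4% of the 401 listed snoRNA transcripts, on the transcript strand. SNORA74, of the H/ACA family that guides pseudouridylation, had 34 and 34 at a G. mt-Ta, the mitochondrial tRNA for alanine, had 34 and 35 at U30 with 0 NT and 0 DMS stops. U30 is the second residue of a 7-base loop (positions 29 to 35) closed by 5 of 5 possible pairs, and the next residue, U31, had 149 and 149 CMCT stops, 2 NT stops and 0 DMS stops.

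The controls reached the same RNAs. Within 10 bases of the position on either side, and leaving it out, the median count was 649 for CMCT, 138.5 for NT and 105 for DMS. Each of the 102 had at least 1 NT stop and at least 3 DMS stops in this window, NT exceeded CMCT there in 6 and DMS exceeded CMCT in 12. The median CMCT count was 27 at the base before and 16.5 at the base after, against 3 and 4 for NT and 1.5 and 3 for DMS. Over the rest of the RNA, the medians per base were 16.9 for CMCT, 6.37 for NT and 4.62 for DMS, and NT reached at least 1 stop per base in 88 of 102. The same values over all positions with at least 50 CMCT stops were not computed. The selected position had the highest CMCT count of its RNA only in Pigk (53 at position 3274), a subunit of the GPI transamidase, and in n-R5s85 (64 at position 34). The controls were sparse in both. Over the rest of the RNA, NT and DMS had 0.444 and 0.728 stops per base in Pigk and 0.288 each in n-R5s85.

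**Figure D5:**
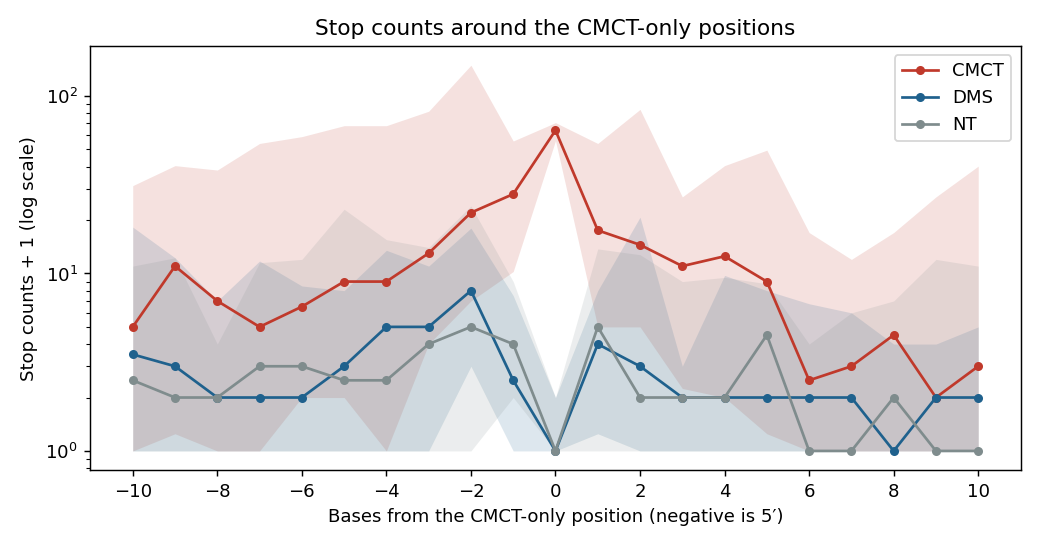
Median stop counts plus 1 (y axis, log scale) of CMCT, DMS and NT from 10 bases before to 10 bases after the 102 CMCT-only positions (x axis, bases), with bands from the lower to the upper quartile. CMCT has a median of 63 at the position, flanked by 27 and 16.5, while NT and DMS drop to a median of 0 there. The selection sets both the high CMCT count and the low control counts at the position.

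Predicted base pairing was not used by the selection. The unpaired probability from thermodynamic folding in windows of 150 bases had a median of 0.375 (quartiles 0.103 and 0.674), and exceeded 0.5 at 37 of 102. Set beside the same base elsewhere in its own RNA, the median position stood at the percentile 46.0, and 48 of 102 lay above the middle. In 5S rRNA 8 of 41 exceeded 0.5, with a median of 0.0690 and 11 of 41 above the middle of their RNA, and elsewhere 29 of 61 did, with a median of 0.470 and 37 of 61 above the middle of their RNA. Isoforms of a gene count the same base several times here, and with each sequence of 25 following bases counted once, 32 of 64 lay above the middle. These shares were not tested.

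The RNA-seq level of the genes that held a position had a median of 1.71 alignments per kb of exon over 72 genes, 35 of the host genes being rRNA copies, against 59.4 over all 13031 genes of the files with a value, in 1 library. The 21 protein-coding genes among them had a median of 652, against 118 over the 7913 protein-coding genes listed, and 15 of the 21 lay above the latter value. The range was wide, from 0.146 in Cpa6 to 54609. Of the 34 rRNA copies with a CMCT-only position and exon bases of their own, 31 had no alignment in this library, against 18.6% of all genes of the files. The share among the other rRNA copies was not computed. This library was made after depletion of rRNA.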

How the data were processed

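CIRS-seq stop counts and RNA-seq alignments of E14 ESCs were analysed as deposited. The authors deposited raw counts of RT stops per transcript position, without normalization, for each library and for both replicates together, from reads mapped to an mm9 variant with E14 variants. The submitters' processing notes name Bowtie 1.0.0, FastQC 0.10.1, bedtools 2.17.0 and TopHat2 2.0.6. How reads with several places in the genome were assigned is not given in the sources used here. RNA-seq was deposited by the authors as single alignments, and those within exons of 1 gene were counted.

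Combined counts equalled the sum of the replicates at 102 of 102 positions. Transcripts were matched to GENCODE vM1 on NCBIM37 (mm9), and 35 of 26827 listed transcripts, which held none of the positions, had no match. The 25 bases after each position were searched on both strands of the genome. Unpaired probabilities came from ViennaRNA 2.7.2 (window 150, span 100). Identity of rRNA copies came from global alignment, as matched bases over the length of the commonest copy. Python 3.11.15, numpy 2.4.6, pandas 2.3.3, numba 0.67.0, scipy 1.17.1 and matplotlib 3.10.9 were used, and the selection was checked on simulated data.

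The positions and lists were chosen with earlier results of these data known, and no test was made. Depth per library is given with the results, and 95% Wilson intervals cover counting error only. Positions named were the 10 with the largest CMCT count, the 3 largest in each of the 5 commonest RNA kinds, up to 3 at either side of the limits, and the 8 symbols with most positions. Others are said to be chosen after their values were seen. Alternatives were other limits, other ways of counting copies, each replicate alone and other folding windows.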

Additional observations from a re-analysis of the deposited data

How the results depend on the processing

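The number of positions depended on the limits, and U stayed the commonest base under each alternative tried. A CMCT minimum of 20 gave 4562 positions, with 3.35% in rRNA and 80.1% of replicates within 2-fold. A minimum of 100 gave 7, with 0% in rRNA and 71.4% within 2-fold. A control maximum of 0 gave 44, with 56.8% in rRNA, and a maximum of 5 gave 1316, with 8.81%. Positions whose next 25 bases occurred once in the genome numbered 51, and 84.3% were U. With either replicate left out at the same minimum, there were 72 to 113 positions, 68.1% to 90.3% at U and 9.72% to 10.6% in rRNA. Without replicate 1 there were 113 positions, and the share in rRNA was 10.6%. Without replicate 2 there were 72, and it was 9.72%. Replicates lay within 1.5-fold at 17.6%. The median unpaired probability was 0.431 in windows of 70 bases and 0.101 for the 49 positions in transcripts of at most 500 bases folded whole, 41 of them rRNA; these 49 had a median of 0.137 in windows of 150 bases.

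Further alternatives were chosen after seeing the data. A minimum of 25 in replicate 1 alone gave 898 positions, 74.7% at U and 8.02% in rRNA, and in replicate 2 alone 1389, with 57.5% at U and 6.26% in rRNA. Positions chosen in 1 replicate whose CMCT counts differed by more than 1 stop had CMCT highest in the other replicate at 92.9% for replicate 1 and at 81.9% for replicate 2. One position for each sequence of the next 25 bases left 64. Positions whose replicates differed by more than 1 stop numbered 40, 92.5% at U, 0% in rRNA and 72.5% within 2-fold. No paired analysis was possible because no result comes from a test. SNORA74 had 2 copies with different counts at 1 position, and counting them separately gave 103 positions.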
